A study of Rattus norvegicus with 16 samples.

Results

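The 8 genes described here, C1qa, C1qb, C1qc, Cd163, Marco, Clec4f, Cd68 and Csf1r, are markers of Kupffer cells, the resident macrophages of the liver. They were chosen by name, through array probe sets paired with exactly 1 gene symbol. Of the 8 genes 7 had such a probe set and were tested, among 12156 genes tested in all. Cd163, the haemoglobin-haptoglobin scavenger receptor, had none and was not analysed here. All 7 measured genes passed the filter on dim probe sets, with 4 of 4 probe sets kept for C1qa and for C1qc, 5 of 5 for C1qb, 19 of 22 for Marco, 8 of 8 for Clec4f, 6 of 7 for Cd68 and 27 of 28 for Csf1r.

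Liver RNA of female Sprague-Dawley rats, 5 weeks old at dissection, was measured on 16 whole-transcript arrays, 4 for each of 4 diets. All groups received Teklad mash (4%). It was given alone (Control) or, for 7 days, with UAB30 at 200 ppm, with 4-methyl-UAB30 (here MeUAB30) at 200 ppm, or with Targretin, which is bexarotene, at 150 ppm. The labels used here state no feeding period for Control. All 3 compounds activate the retinoid X receptor (RXR), and the question was which liver genes each of them changed. The labels do not say that the 4 arrays of a diet came from 4 separate animals, so the p-values rest on a spread between arrays that may be technical. With 1 group for each compound, effects of a compound and of its diet batch cannot be told apart.

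Kupffer cells sit in the liver sinusoids, where they clear particles, ageing red cells and microbial products from portal blood. Their survival depends on signalling through the CSF1 receptor, and their identity on macrophage transcription factors such as PU.1 and on nuclear receptors, among them the liver X receptor, a partner of RXR. The markers fall into roles: the C1q chains of the first complement component, which opsonise apoptotic cells and immune complexes; the surface scavenger and lectin receptors Cd163, Marco and Clec4f; the lysosomal glycoprotein Cd68; and the growth factor receptor Csf1r. In whole liver, a lower or higher marker level from a different number of cells cannot be told apart from a different amount of RNA per cell.

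The hepatocyte product albumin (Alb) had a median gene value of 14.05 on the log2 intensity scale and ranked 2 of the tested genes, as the tissue label states. The array medians lay between 22.2 and 23.8 on the linear intensity scale. The intensity range of an array, taken as log2 of its 99th percentile over its median, ran from 6.06 to 6.28. The 4 arrays of narrow range named in an earlier account of these data were Control 3 at 6.06, Targretin 2 at 6.08, UAB30 3 at 6.14 and MeUAB30 1 at 6.149. They are not the 4 narrowest, since UAB30 2, at 6.147, was narrower than MeUAB30 1. All 7 measured genes had their lowest Control value on Control 3 and their lowest Targretin value on Targretin 2. All 7 had their highest Control value on Control 2 and their highest UAB30 value on UAB30 1. Marker changes without single arrays are given below.

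No measured Kupffer cell marker passed the test in any comparison. With MeUAB30 all but Csf1r had higher means than Control, by 0.39 to 0.92 on the log2 scale, and Csf1r differed by -0.014. The levels below are log2 intensities of a gene on each array. Differences between 2 diets are log2 changes, from the limma fit, with adjusted p-values over all 12156 genes.

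C1qa, C1qb and C1qc encode the A, B and C chains that assemble into C1q, the recognition part of the C1 complex. In the RefSeq annotation of GRCr8 the 3 genes are neighbours on chromosome 5, in the order C1qb, C1qc and C1qa. The 300-base promoters of the outer genes, which run across the gene start, are shown because the 3 chains varied together. That was not particular to them. With group means subtracted, Pearson r was 0.71 for C1qa with C1qb, 0.80 for C1qb with C1qc and 0.91 for C1qa with C1qc. All 21 marker pairs had a median of 0.85 and a highest r of 0.94. Without that subtraction C1qa with C1qc had the highest r of the 21, 0.92. The promoters are RefSeq sequences of GRCr8 on the minus strand, C1qa at chr5:154419884-154420183 and C1qb at chr5:154407778-154408077. Capitals mark GAGGAA, the core of sites of PU.1, or its other-strand reading TTCCTC, where the search on both strands found it.
C1qa: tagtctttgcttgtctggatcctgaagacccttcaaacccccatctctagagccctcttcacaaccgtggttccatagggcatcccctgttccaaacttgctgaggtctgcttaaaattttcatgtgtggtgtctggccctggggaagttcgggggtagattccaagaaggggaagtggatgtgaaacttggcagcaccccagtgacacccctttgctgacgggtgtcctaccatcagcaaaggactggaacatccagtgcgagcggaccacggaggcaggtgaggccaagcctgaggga
C1qb: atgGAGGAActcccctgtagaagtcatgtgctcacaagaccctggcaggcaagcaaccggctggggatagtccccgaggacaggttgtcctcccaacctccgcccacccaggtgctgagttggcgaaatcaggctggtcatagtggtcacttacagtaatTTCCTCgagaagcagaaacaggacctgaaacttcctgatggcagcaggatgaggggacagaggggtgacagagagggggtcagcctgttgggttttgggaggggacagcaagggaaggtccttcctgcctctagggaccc
The window of C1qa had no GAGGAA. That of C1qb had 2, one beginning at -247 on the strand of the gene and one at -90 on the other strand.

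C1qc measured 7.94, 8.68, 7.89 and 7.91 on Control arrays 1 to 4, and 9.04, 8.94, 9.05 and 9.10 on the MeUAB30 arrays. Its values were 9.27, 8.14, 8.19 and 8.69 with UAB30 and 8.53, 7.16, 8.35 and 8.65 with Targretin. Every MeUAB30 array lay above every Control array, whereas the UAB30 and Targretin arrays overlapped Control. The MeUAB30 values were tight (mean 9.03 ± 0.06, SD, n = 4) beside those of Control (8.11 ± 0.38, SD, n = 4). The change against Control was 0.92 (SE 0.29, 95% interval 0.31 to 1.54), with a limma adjusted p of 0.0542, which missed the threshold of 0.05. Against Control the change was 0.46 with UAB30 (adjusted p = 0.754) and 0.061 with Targretin (adjusted p = 0.982). C1qc was the only measured marker whose MeUAB30 and Control arrays did not overlap, and 14.4% of all tested genes did not overlap in that comparison. All 4 kept probe sets of C1qc were higher with MeUAB30 than in Control.

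C1qa measured 8.11, 8.29, 7.44 and 7.82 in Control, and 8.62, 8.23, 8.52 and 8.53 with MeUAB30. With UAB30 it measured 8.47, 7.58, 7.86 and 8.17, and with Targretin 8.13, 7.08, 7.90 and 8.39. MeUAB30 2 lay below Control 2, and the other 3 MeUAB30 arrays lay above all Control arrays. The MeUAB30 change was 0.56 (95% interval 0.032 to 1.09), with an unadjusted p of 0.039 and a limma adjusted p of 0.188. UAB30 and Targretin differed from Control by 0.11 (adjusted p = 0.953) and -0.038 (adjusted p = 0.988), both within the spread of the arrays.

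C1qb measured 6.74, 7.56, 6.70 and 7.00 in Control, and 7.36, 7.36, 7.83 and 7.77 with MeUAB30. With UAB30 the values were 7.62, 7.05, 7.16 and 7.08, and with Targretin 7.16, 6.64, 7.30 and 7.25. Control 2 again reached into the MeUAB30 range, and the other 3 Control arrays lay below it. The MeUAB30 change was 0.58 (95% interval 0.15 to 1.005, limma adjusted p = 0.0839), beside 0.22 with UAB30 (adjusted p = 0.852) and 0.085 with Targretin (adjusted p = 0.959). Of the 5 probe sets of C1qb 4 were higher with MeUAB30, and they ranged from -0.24 to 0.85.

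**Figure D1:**
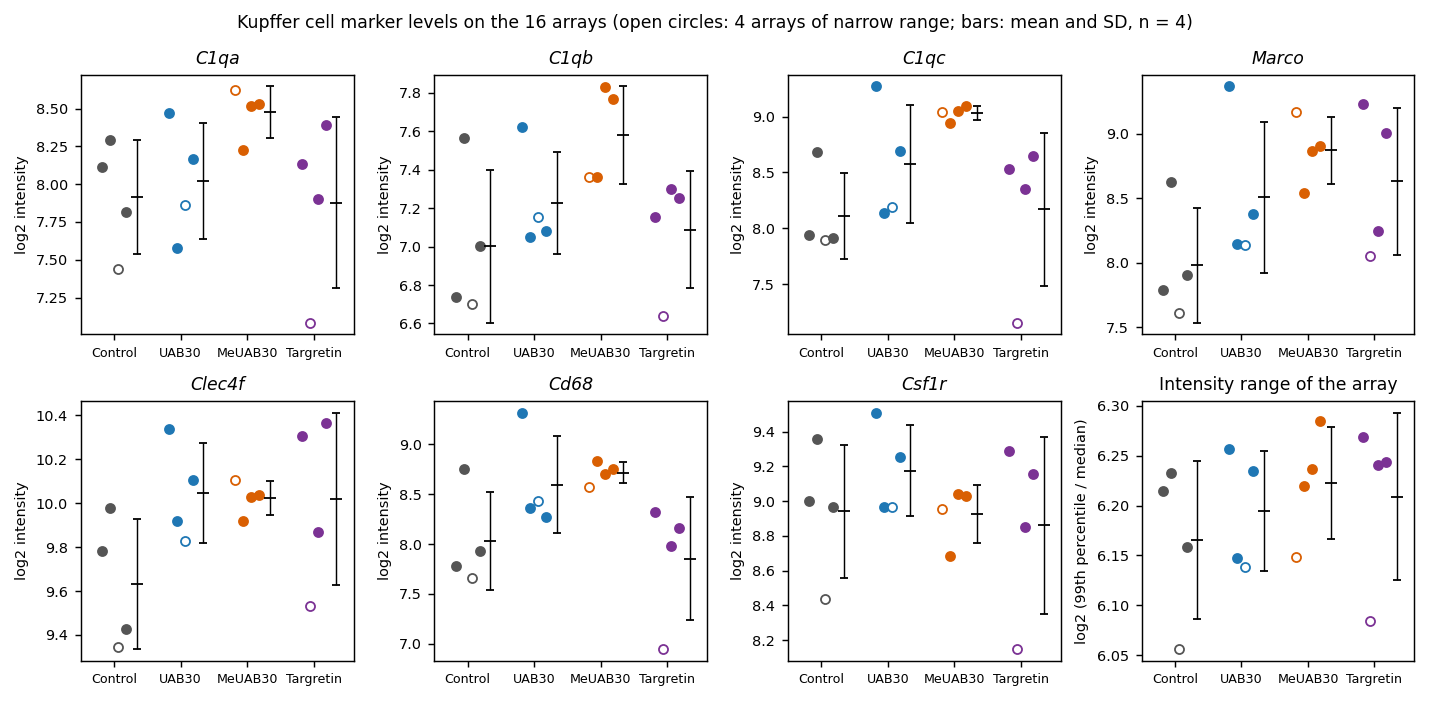
Log2 intensity (vertical axis) of each measured Kupffer cell marker on every array, grouped by diet (horizontal axis), with the group mean and SD (n = 4 arrays). C1qc with MeUAB30 lies between 8.94 and 9.10, above all 4 Control arrays, and the arrays of each compound overlap Control for every other marker.

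Marco and Clec4f are the receptors of the set that were measured. Marco is a class A scavenger receptor that binds bacteria and modified lipoproteins, and Clec4f is a galactose-binding C-type lectin found in rodents almost exclusively on Kupffer cells. Their RefSeq promoters of GRCr8, both on the minus strand, are shown because of their changes. Only these markers had a mean higher than Control by 0.386 or more with all 3 compounds. Marco lies at chr13:34201206-34201505, inside the annotated span of the gene and so not at its outermost start, with GAGGAA in capitals, and Clec4f at chr4:117696358-117696657, with capitals on TGACCT, the other-strand reading of the nuclear receptor hexamer AGGTCA.
Marco: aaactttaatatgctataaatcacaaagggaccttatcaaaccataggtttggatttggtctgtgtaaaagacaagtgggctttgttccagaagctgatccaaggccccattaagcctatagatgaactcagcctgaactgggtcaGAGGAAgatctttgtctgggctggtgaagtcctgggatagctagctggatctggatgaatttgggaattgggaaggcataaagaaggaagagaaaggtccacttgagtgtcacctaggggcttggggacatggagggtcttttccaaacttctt
Clec4f: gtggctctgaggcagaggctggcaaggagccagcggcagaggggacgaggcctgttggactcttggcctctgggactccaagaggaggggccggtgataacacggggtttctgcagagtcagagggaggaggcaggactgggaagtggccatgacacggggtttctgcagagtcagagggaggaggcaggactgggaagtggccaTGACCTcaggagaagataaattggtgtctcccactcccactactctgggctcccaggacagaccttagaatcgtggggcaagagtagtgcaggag
GAGGAA stood in 27.6% of the 33469 RefSeq promoters of this length and in 4 of 7 marker promoters (C1qb, Marco, Cd68 and Csf1r). The 7 promoters searched were those of these 4 genes and of C1qa, Clec4f and Cd163; that of C1qc was not searched. AGGTCA stood in 16.2% of all promoters and in 1 of the 7, that of Clec4f. Direct repeats of the hexamer spaced by 1 base (DR1) or 4 bases (DR4) were in 0 of the 7, and in 18 and 2 of all promoters. Both strands were searched, and each direct repeat also counts as AGGTCA.

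Marco measured 7.79, 8.62, 7.61 and 7.90 in Control. The values were 9.37, 8.14, 8.14 and 8.38 with UAB30, 9.17, 8.54, 8.87 and 8.90 with MeUAB30, and 9.23, 8.05, 8.24 and 9.003 with Targretin. Every compound array lay above 3 of the 4 Control arrays, and Control 2 overlapped all 3 compound groups. The change was 0.89 with MeUAB30 (SE 0.30, 95% interval 0.26 to 1.52, limma adjusted p = 0.0685). It was 0.65 with Targretin (95% interval 0.025 to 1.28, adjusted p = 0.426) and 0.53 with UAB30 (SE 0.30, adjusted p = 0.714). All 19 kept probe sets of Marco were higher than Control with each of the compounds.

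Clec4f measured 9.78, 9.98, 9.35 and 9.43 in Control, and 10.34, 9.92, 9.83 and 10.10 with UAB30. With MeUAB30 it measured 10.10, 9.92, 10.03 and 10.04, and with Targretin 10.31, 9.53, 9.87 and 10.37. The 3 compound means, 10.05 ± 0.23, 10.02 ± 0.08 and 10.02 ± 0.39 (SD, n = 4) for UAB30, MeUAB30 and Targretin, lay above a Control mean of 9.63 ± 0.30. The changes were 0.41 (95% interval 0.028 to 0.80, limma adjusted p = 0.602), 0.39 (0.0027 to 0.78, adjusted p = 0.212) and 0.39 (adjusted p = 0.459) in the same order. None passed the threshold, and the compound arrays overlapped Control 2 in each case.

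Cd68, a lysosomal membrane glycoprotein used as a general macrophage marker, had compound means on both sides of Control. It measured 7.78, 8.75, 7.66 and 7.93 in Control, 9.32, 8.36, 8.43 and 8.27 with UAB30, 8.57, 8.83, 8.71 and 8.76 with MeUAB30, and 8.33, 6.95, 7.98 and 8.16 with Targretin. The UAB30 and MeUAB30 arrays lay above every Control array except Control 2, and Targretin 2 was the lowest of the 16. The change was 0.57 (SE 0.29, limma adjusted p = 0.675) with UAB30 and 0.69 (95% interval 0.081 to 1.30, adjusted p = 0.155) with MeUAB30. With Targretin it was -0.17 (adjusted p = 0.935), and 0 of its 6 kept probe sets were higher than in Control. This last change was 0.13 without Targretin 2 and 0.066 without Control 2, so its sign rested on single arrays.

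Csf1r, the receptor for CSF1 and IL-34 on which macrophage survival depends, did not share the higher MeUAB30 means. It measured 8.998, 9.36, 8.44 and 8.97 in Control and 8.95, 8.68, 9.04 and 9.03 with MeUAB30. With UAB30 it measured 9.51, 8.97, 8.97 and 9.26, and with Targretin 9.29, 8.15, 8.85 and 9.15. The MeUAB30 arrays lay inside the Control range, with a change of -0.014 (95% interval -0.49 to 0.46, limma adjusted p = 0.982). The interval still holds changes of up to about 0.46, so an unchanged level is not shown. UAB30 and Targretin differed from Control by 0.23 (adjusted p = 0.86) and -0.079 (adjusted p = 0.966). Of the 27 kept probe sets 15 were higher and 12 lower with MeUAB30 than in Control, and they ranged from -0.86 to 0.57. The change of -0.014 thus summarises probe sets that disagreed in sign. With UAB30 25 of the 27 were higher than in Control.

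Against Control 0 of 7 markers were called with UAB30, where 0.0823% of all tested genes were called, by limma with Benjamini-Hochberg adjustment. With MeUAB30 0 of 7 were called, beside 9.89% of all genes, and with Targretin 0 of 7, beside 2.18%. At an unadjusted p under 0.05 the counts were 1 of 7 with UAB30 (Clec4f), 6 of 7 with MeUAB30 (all but Csf1r) and 1 of 7 with Targretin (Marco). Over all genes that rule took 7.83%, 23.2% and 10.9%. The 7 changes had a median of 0.41 with UAB30, 0.58 with MeUAB30 and 0.061 with Targretin, beside medians over all genes of 0.052, 0.058 and -0.0068. The 3 comparisons share the 4 Control arrays.

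The UAB30 changes moved with single arrays. Without UAB30 1 they were 0.23 for C1qc, 0.24 for Marco, 0.33 for Cd68, 0.094 for C1qb and 0.12 for Csf1r. Without Control 2 they were 0.65 for C1qc, 0.74 for Marco, 0.81 for Cd68, 0.41 for C1qb, 0.23 for C1qa and 0.37 for Csf1r. Without Control 3 the changes were 0.13 for C1qb and 0.066 for Csf1r, and C1qa was negative without UAB30 1 (-0.046) or Control 3 (-0.054). No marker passed in any of these fits.

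**Figure D2:**
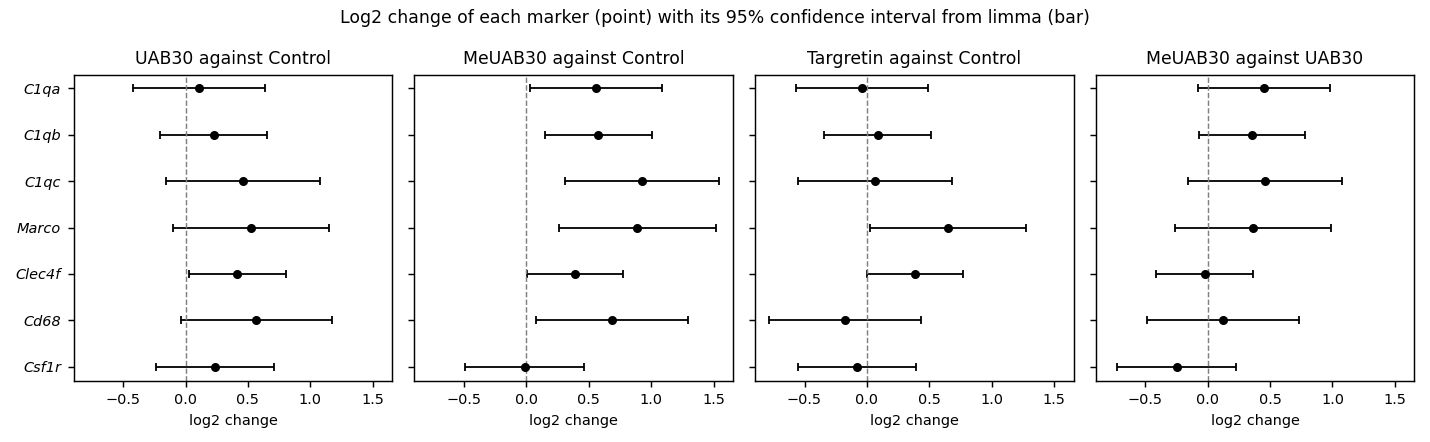
Log2 change (horizontal axis) of each measured Kupffer cell marker in the 4 comparisons, with the 95% interval of the limma fit (n = 4 arrays a group). The MeUAB30 changes against Control lie at 0.39 to 0.92 for 6 markers and at -0.014 for Csf1r, and none of the 28 changes passed the adjusted threshold.

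UAB30 and its 4-methyl analog were the pair fed at the same dose, 200 ppm, and were compared directly. By name they differ in the methyl group of MeUAB30. Here 0 of 7 markers were called, beside 1.39% of all genes, and 0 of 7 passed at an unadjusted p under 0.05, beside 11.3%. The differences (MeUAB30 minus UAB30) were 0.45 for C1qa (95% interval -0.073 to 0.98), 0.35 for C1qb (-0.073 to 0.78) and 0.46 for C1qc (-0.15 to 1.08). The limma adjusted p-values of these 3 were 0.544, 0.565 and 0.618. For Marco the difference was 0.36 (-0.26 to 0.99), for Cd68 0.12 (-0.49 to 0.73), for Clec4f -0.025 (-0.41 to 0.36) and for Csf1r -0.25 (-0.72 to 0.23), with adjusted p-values from 0.739 to 0.981. The intervals of the C1q chains reach up to 1.08, so the 2 analogs are not shown to act alike on them. All 19 Marco probe sets were higher with MeUAB30 than with UAB30, and 4 of 27 Csf1r probe sets were. Targretin was fed at 150 ppm, and its values stand beside those of the analogs with no comparison between them.

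Because Csf1r was read from the same arrays, the other 6 markers were also expressed as the difference from Csf1r within each array. This measure was chosen after the values were seen and has no test, and the size of a difference between 2 genes has no meaning on an array; only its shift between diets is given. C1qc minus Csf1r was -1.05, -0.68, -0.54 and -1.06 in Control, and 0.09, 0.26, 0.01 and 0.07 with MeUAB30. With UAB30 it was -0.24, -0.83, -0.78 and -0.57, and with Targretin -0.76, -0.99, -0.50 and -0.51. The 4 MeUAB30 arrays stood above all 12 others.
C1qa minus Csf1r was -0.88, -1.07, -0.998 and -1.15 in Control and -0.33, -0.46, -0.52 and -0.50 with MeUAB30, again above all 12 others. For all 6 markers the 4 MeUAB30 arrays stood above the 4 Control arrays, as did 8.56% of all genes set against Csf1r in the same way. Of all genes 2.19% stood above all 12 others. Csf1r was the marker without a higher MeUAB30 mean, and with group means subtracted its r with the other 6 was 0.78 to 0.94. Both favour a separation of these 6, and the genes behind the 8.56% were not matched for such an r, so the 2 shares are not alike. The mean shift of MeUAB30 against Control was 0.57 for C1qa, 0.59 for C1qb, 0.94 for C1qc, 0.90 for Marco, 0.70 for Cd68 and 0.40 for Clec4f. The 4 Targretin arrays also stood above the 4 Control arrays for Marco (shift 0.73) and Clec4f (shift 0.47). Such a difference shows unequal change of 2 genes and does not show which of them changed. With a plain mean of probe sets in place of median polish, 4 of the 6 markers kept this separation from Control. The Csf1r probe sets themselves disagreed in sign with MeUAB30, as given above.

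**Figure D3:**
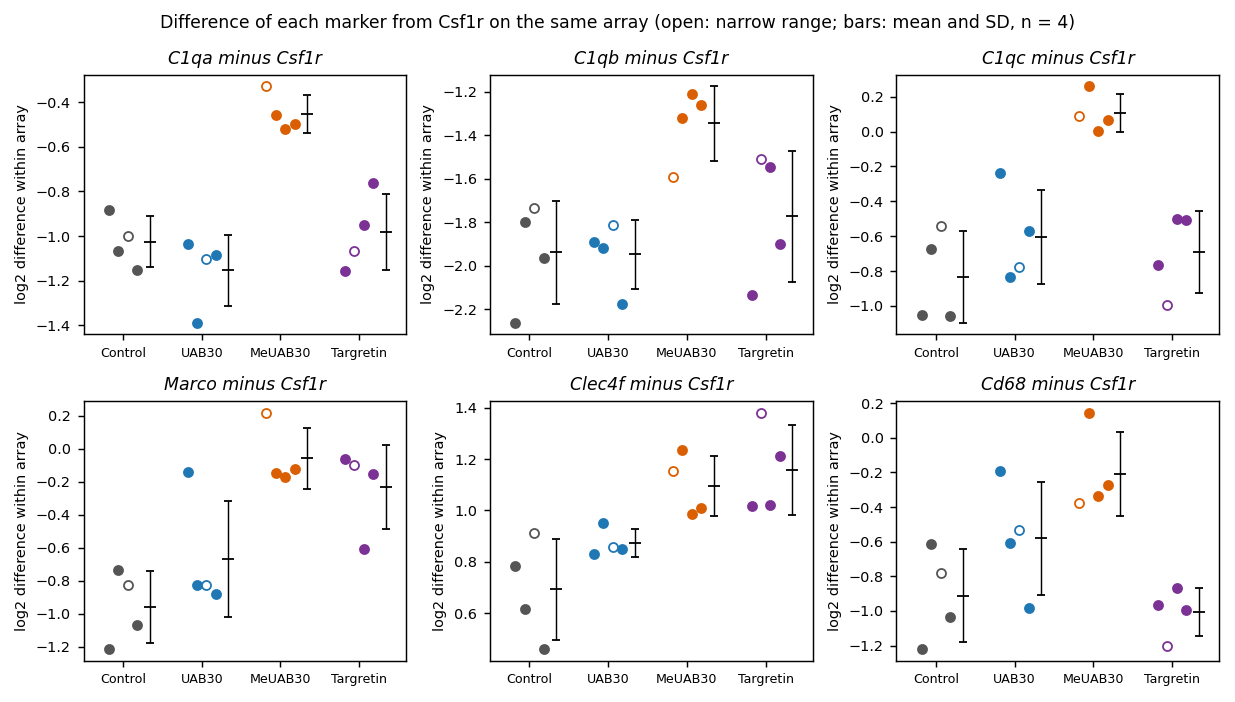
Difference in log2 intensity between each of 6 Kupffer cell markers and Csf1r on the same array (vertical axis), for the 16 arrays by diet (horizontal axis). For C1qa and C1qc the 4 MeUAB30 arrays lie above all 12 other arrays, and for all 6 markers above the 4 Control arrays.

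Across arrays the 7 markers varied together. The 21 pairs had Pearson r from 0.58 to 0.92 over the 16 arrays (median 0.75), and from 0.64 to 0.94 after the group means were subtracted (median 0.85). The arrays share their intensity range, and this range moved with the markers. Pearson r of each marker with the range was 0.61 to 0.76 over 16 arrays (permutation p adjusted over the 7 markers 0.00257 to 0.0107), and Spearman rho 0.47 to 0.74 (adjusted permutation p 0.00644 to 0.0698, Cd68 alone missing 0.05). Within diets, with group means subtracted, r ran from 0.61 for Marco to 0.87 for Csf1r (adjusted permutation p 0.0035 to 0.0303). Without the 2 arrays of most extreme range, Control 3 and Targretin 2, r was 0.26 to 0.55 over 14 arrays. Within diets it was then 0.44 to 0.68 (adjusted permutation p 0.0872 to 0.167), so the relation rested in part on those arrays. The relation was not particular to the markers: the median r within diets over all genes was 0.55, and 29.0% of genes had an r at or above the median marker (0.78).

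**Figure D4:**
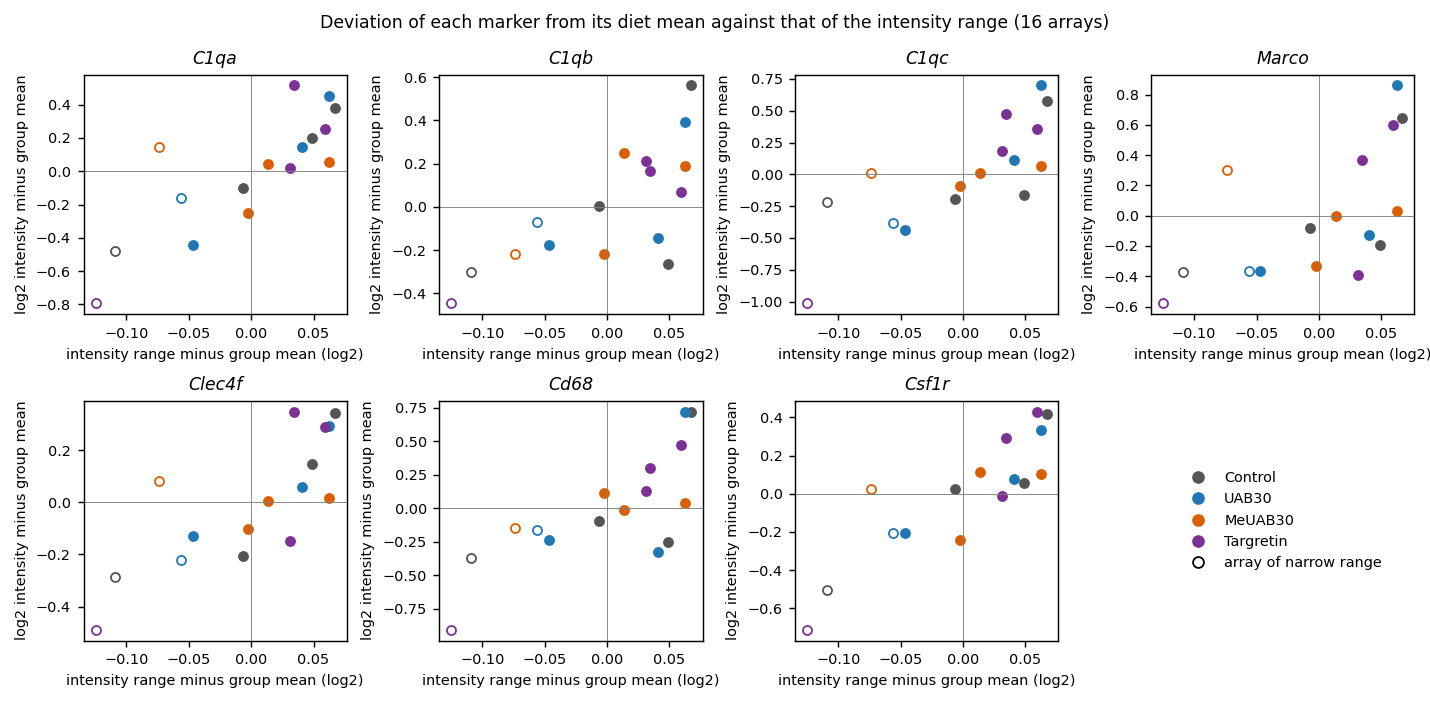
Log2 intensity of each measured Kupffer cell marker minus its diet mean (vertical axis) against the intensity range of the array minus its diet mean (horizontal axis). The range is log2 of the 99th percentile over the median, and the 16 arrays are marked by diet. Control 3 and Targretin 2, with ranges of 6.06 and 6.08 before subtraction, hold the lowest marker values of their groups.

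With the intensity range as a covariate, the C1qc change with MeUAB30 was 0.63 and passed (limma adjusted p = 0.0347). Without the 4 arrays of narrow range it was 0.85 and passed (adjusted p = 0.0329). Of 12156 genes 3026 were called with the covariate and 2446 without these 4 arrays, beside 1202 in the main fit. Without Control 2, the array with the highest marker values of its group, 4 of 7 markers passed with MeUAB30. These were C1qc (change 1.12, adjusted p = 0.0242), Marco (adjusted p = 0.0251), C1qb (adjusted p = 0.0149) and Cd68 (adjusted p = 0.0423). Over all genes 1346 were called in that fit. Leaving out the highest Control array raises the change of each marker by construction. Without Targretin 2 the count was 3 and without UAB30 1 it was 2, through the spread that all groups share. Over all genes these 2 fits called 1718 and 1227. The same 4 markers also passed under array weights (limma adjusted p 0.00649 for C1qc to 0.0421 for Marco). That fit kept all 16 arrays, but with weights of 0.22 for Control 3 and 0.17 for Targretin 2. It called 2771 of the 12156 genes. C1qc passed with quantile normalization as well (limma adjusted p = 0.0376), where 1456 of all genes were called. So the side of the threshold for these markers changed both with single arrays and with the processing or model.

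Other genes of the macrophage and of C1 biology were read from lists chosen with earlier results of these data known. Of 25 other Kupffer cell and macrophage genes 21 were tested. With MeUAB30 2 rose and none fell, beside 9.89% of all genes called: Fcer1g, the signalling chain of Fc receptors, from 8.09 ± 0.41 to 9.13 ± 0.12 (change 1.04, SE 0.26, limma adjusted p = 0.0178), and the high-affinity IgG receptor Fcgr1a (change 0.70, adjusted p = 0.0371). The Fcer1g call was lost without MeUAB30 2, Control 1 or Control 4 (adjusted p up to 0.0663). The Fcgr1a call was lost without any 1 of MeUAB30 1, 3 and 4 and Control 1, 3 and 4 (up to 0.116). The list's median change was 0.25 with MeUAB30, 0.35 with UAB30 and 0.075 with Targretin. With UAB30 and Targretin 0 of the 21 were called. At an unadjusted limma p under 0.05 these counts were 6 and 1, beside 7.83% and 10.9% of all genes.

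Of 9 genes of the C1 complex and early classical complement 7 were tested. With MeUAB30 the protease C1s rose by 0.44 (limma adjusted p = 0.0261) and the C1 inhibitor Serping1 by 0.50 (adjusted p = 0.0375). With Targretin the protease C1r fell by 0.60 (adjusted p = 0.0275). Hepatocytes make these proteins too. Over 26 alternative settings the adjusted p reached 0.0937 for C1s, 0.117 for Serping1 and 0.209 for C1r. The C1s call was lost without any 1 of MeUAB30 1 and 3 and Control 1, 3 and 4. The Serping1 call was lost without UAB30 4, any MeUAB30 array or Control 1, 3 or 4, and the C1r call without Targretin 3, Control 1 or Control 2.

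Of 16 ligands of the CSF1 receptor and macrophage transcription factors 13 were tested. Csf1, the main ligand of Csf1r, fell with Targretin by 0.62 (7.48 ± 0.11 to 6.86 ± 0.29, limma adjusted p = 0.0188). That call was lost without Control 1 or without Control 2 (adjusted p up to 0.165). Cebpb, a transcription factor of myeloid cells and hepatocytes, rose with MeUAB30 by 0.72 (8.36 ± 0.13 to 9.08 ± 0.05, adjusted p = 0.00286), a call held in all 26 alternatives. It was also higher with MeUAB30 than with UAB30 by 0.58 (adjusted p = 0.0401). That last call was lost without any 1 of UAB30 2 to 4, Targretin 3 and 4, the 4 MeUAB30 arrays and Control 4 (adjusted p up to 0.161).

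Kupffer cells handle haem and iron from ageing red cells. Of 11 haem and iron genes 10 were tested, and 3 rose and 2 fell with MeUAB30. Over all genes 7.88% rose and 2.01% fell in that comparison. Blvrb, a biliverdin reductase, rose with MeUAB30 by 1.06 (limma adjusted p = 0.000407) and with Targretin by 0.87 (adjusted p = 0.00384), and both calls held in all 26 alternatives. The iron exporter Slc40a1 (ferroportin) fell with MeUAB30 by 0.79 (adjusted p = 0.00759), and the endocytic receptor Lrp1, which takes up haem bound to hemopexin, rose by 0.44 (adjusted p = 0.0129). The Lrp1 call was lost without MeUAB30 2 (adjusted p = 0.0531). The remaining calls, named after their values were seen, were the ferritin heavy chain Fth1 (0.37, adjusted p = 0.0493) and the transferrin receptor Tfrc (-1.29, adjusted p = 0.0314). With UAB30 0 of the 10 were called, and the smallest p belonged to Blvrb (log2 change 0.70, adjusted p = 0.151). The summed intensity of the 10 genes ranged from 39248 to 43605 in Control, beside 1903 to 3397 for the 7 Kupffer cell markers. Whether the levels of the 10 genes come from Kupffer cells was not tested.

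Of 13 scavenger and phagocytic receptors 11 were tested, and with MeUAB30 4 of the 11 were above Control (median change -0.12, beside 0.058 over all genes). With Targretin 3 of the 11 were above Control. The fatty acid and oxidised lipoprotein receptor Cd36 rose with MeUAB30 by 1.09 (limma adjusted p = 0.00194) and with Targretin by 1.08 (adjusted p = 0.00372). The second of these calls was lost with a lower filter on dim probe sets or none (adjusted p up to 0.14). The HDL receptor Scarb1 fell with Targretin by 0.54 (adjusted p = 0.0311), a call lost without any 1 of the 4 Targretin arrays and Control 1, 2 and 4 (up to 0.21).

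Among lysosomal genes 16 of 20 were tested, and 5 rose and 1 fell with MeUAB30, beside 7.88% and 2.01% of all genes. Lipa, the lysosomal acid lipase, fell by 0.86 with MeUAB30 (limma adjusted p = 0.000496) and by 0.62 with Targretin (adjusted p = 0.0133). It was lower with MeUAB30 than with UAB30 by a log2 change of -0.68 (adjusted p = 0.00974). The Targretin call of Lipa was lost without Control 1 (adjusted p up to 0.0737), and that between the analogs without UAB30 4 or MeUAB30 2 (up to 0.0511). The cholesterol carrier Npc2 rose with MeUAB30 by 0.77 (adjusted p = 0.00635) and the lysosomal membrane protein Lamp1 by 0.52 (adjusted p = 0.0102). These genes are expressed in many liver cells, and whether their levels come from Kupffer cells was not tested.

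Of 17 macrophage activation and chemokine genes 15 were tested. The interleukin-1 receptor antagonist Il1rn rose with Targretin by 0.91 (limma adjusted p = 0.0266), the only call of this list in the 4 comparisons. It was lost without any 1 of Targretin 1, 3 and 4 and Control 2, 3 and 4 (adjusted p up to 0.148). With UAB30 against Control 0 genes were called in each of the 7 related lists, beside 0.0823% of all genes.

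Markers of other liver cells were read on the same arrays. Of 16 sinusoidal endothelial markers 12 were tested and 0 were called by limma in the 4 comparisons (2 at an unadjusted p under 0.05 with MeUAB30 and 0 in the other comparisons). Their summed intensity ranged from 3848 to 5533 in Control, 4380 to 5623 with UAB30, 4689 to 5896 with MeUAB30 and 3308 to 5968 with Targretin. The summed intensity of the 7 Kupffer cell markers ranged from 1903 to 3397 in Control, 2679 to 4486 with UAB30, 3156 to 3634 with MeUAB30 and 1784 to 3601 with Targretin. Of 12 neutrophil and monocyte markers 8 were tested with 0 called in any comparison, and their sum ranged from 667 to 834 in Control and from 770 to 808 with MeUAB30. All 10 dendritic cell markers were tested with 0 called in any comparison, and their sum ranged from 2231 to 3827 in Control and from 3038 to 4058 with MeUAB30. It ranged from 3295 to 5463 with UAB30 and from 1521 to 3238 with Targretin. With UAB30 9 of the 10 were above Control (median change 0.30, beside 0.052 over all genes). At an unadjusted p under 0.05 with MeUAB30 against Control, 2 of the 8 and 2 of the 10 passed, beside 23.2% of all genes. The lowest log2 value of a tested marker of these 3 lists was 4.77. These sums overlapped between Control and MeUAB30, and their part in the marker levels was not tested.

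Of 12 hepatocyte markers 10 were tested, and 3 fell with MeUAB30, beside 2.01% of all genes. These were the urea cycle enzyme Cps1 by 0.57 (limma adjusted p = 0.00136), the tyrosine aminotransferase Tat by 0.60 (adjusted p = 0.038) and the apolipoprotein Apob by 0.34 (adjusted p = 0.047). The Cps1 call held in all 26 alternatives. That of Tat was lost without any 1 of MeUAB30 1 and 2 and Control 1, 2 and 4 (adjusted p up to 0.131). That of Apob was lost without any 1 of 13 arrays, UAB30 1, Targretin 2 and Control 3 being the exceptions (up to 0.145).

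Among stellate cell and fibroblast markers 11 of 15 were tested. With MeUAB30 the intermediate filament gene Vim rose by 0.79 (limma adjusted p = 0.0366) and the hedgehog-binding gene Hhip fell by 0.87 (adjusted p = 0.00608), and with Targretin Rgs5 rose by 0.67 (adjusted p = 0.0471). The Vim call was lost without any MeUAB30 array, Control 3 or Control 4 (adjusted p up to 0.112). The Rgs5 call was lost without any 1 of 13 arrays, UAB30 1, Targretin 2 and MeUAB30 2 being the exceptions (up to 0.168). Of 8 erythroid markers 5 were tested, and Epb42 fell with MeUAB30 by 0.61 (adjusted p = 0.0125) and beta-globin Hbb with Targretin by 0.98 (adjusted p = 0.0302). The Hbb call was lost without any 1 of Targretin 2 and 3 and Control 1, 2 and 3 (up to 0.148), and the Epb42 call with a lower filter on dim probe sets or none (up to 0.344). Of the T and NK cell, B and plasma cell, cholangiocyte and proliferation lists 0 genes were called by limma in the 4 comparisons; with MeUAB30 against Control 1, 0, 0 and 1 of them passed at an unadjusted p under 0.05.

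The 8 genes outside the set with the highest Pearson r with the mean standardised value of the 7 markers over the 16 arrays were Ctss (0.95), Dnase1l3 (0.94), Anxa3 (0.94), Vapa (0.94), Rac2 (0.94), Prr13 (0.93), Cib1 (0.93) and Prex1 (0.93). The median over all other genes was 0.28, and the markers themselves, which form the mean, had 0.81 to 0.95. The arrays share the intensity range described above. Ctss, which encodes the lysosomal cysteine protease cathepsin S, changed with MeUAB30 by 0.75 (limma adjusted p = 0.146). Dnase1l3, a secreted DNase, changed by 0.66 (adjusted p = 0.0952), and neither passed the threshold. Ctss is on the lists of other macrophage genes and of lysosomal genes, and Dnase1l3 on that of sinusoidal endothelial markers. An r this high was thus not particular to Kupffer cell markers.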

How the data were processed

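Liver RNA was hybridised to Affymetrix whole-transcript arrays, per the labels' protocols, which give total RNA as the extract, whereas the labels' molecule field gives polyA RNA. The values deposited by the authors are 1 linear intensity per probe set and array, covering 887828 probe sets and 16 arrays; 0 values are missing. How the authors summarised probes, corrected background and normalized is not given in the sources used here, so background correction could not be varied; rn4 stands in the submitters' processing notes. Groups were taken from the titles.

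The platform annotation gave exactly 1 symbol for 177688 probe sets (20.0%), several for 2920 and none here for 707220. Of 14903 symbols 11393 were current in the RefSeq table of GRCr8, 3454 were updated and 56 kept. Intensities were taken as log2(intensity + 1), which understates changes of dim genes. Probe sets whose mean reached the 75th percentile (log2 value 6.01) were kept, and genes were summarised by median polish over a median of 6 probe sets. A model with 1 mean per diet was fitted with limma 3.58.1 under R 4.3.3 (lmFit, then eBayes; tables were read with the data.table package, 1.17.8), and p-values were adjusted by Benjamini-Hochberg over 12156 genes at 0.05. Rose, fell, passed and called refer to that threshold. Precision is set by how many arrays there are, and log2 changes had a median standard error of 0.166. The fit was tested on simulated data. Relations to the intensity range used two-sided permutation tests with 100000 resamples.

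The 8 markers and all lists were chosen with earlier results of these data known. From each other list and comparison, up to 3 called genes with the smallest adjusted p were named, or, where none was called, the gene with the smallest unadjusted p. The alternatives were another pseudocount (16), 2 other filters, a plain mean of probe sets, quantile normalization, array weights, a replicate block, the 2 groups alone, each array left out, the 4 arrays of narrow range left out, and the range as a covariate. Promoter sequences are from RefSeq (GRCr8).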

Additional observations from a re-analysis of the deposited data

Results flagged for a closer look

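In 19 of 236 groups of 4 arrays the highest or lowest array lay far from the other 3 by Dixon's criterion at the 95% level. Chance gives about 1 in 20 such groups. Among the Kupffer cell markers these were C1qc on Control 2 (8.68, highest of its group) and Cd68 on UAB30 1 (9.32, highest). Control 2 was also the far highest array of Control for Blvrb (9.67), Cdh5 (8.92), Fcer1g (8.71), Serpina1 (13.44) and Serping1 (12.31). Targretin 2 was the far lowest array of its group for Cdh5 (7.15), Fcgr1a (6.16), Id3 (6.62) and Scarb1 (8.67), and its intensity range (6.08) was the far lowest of the Targretin arrays. The remaining far arrays were UAB30 1 for Ccna2 (6.12, lowest), UAB30 3 for Cd36 (10.62, lowest), Control 4 for Clec9a (6.44, highest), Control 3 for Cybb (8.47, lowest), MeUAB30 2 for Cybb (8.35, lowest), MeUAB30 3 for Mmp9 (6.60, lowest) and MeUAB30 1 for Serpina1 (13.25, lowest).

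Between the analogs at equal dose 4 named genes passed the limma test of the difference itself (MeUAB30 minus UAB30, n = 4 arrays a group). These were Cebpb (0.58, adjusted p = 0.0401), Cps1 (-0.46, adjusted p = 0.022), Hhip (-0.83, adjusted p = 0.0295) and Lipa (-0.68, adjusted p = 0.00974). None was a Kupffer cell marker.

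For other genes all 4 arrays of 1 diet lay above the Control mean and all 4 of another below it. These differences from Targretin were not tested. C1r differed from the Control mean by 0.16 with UAB30 and 0.37 with MeUAB30, and by -0.60 with Targretin. C1s differed by 0.20 with UAB30 and 0.44 with MeUAB30, and by -0.45 with Targretin. Csf1 differed by 0.18 with MeUAB30 and by -0.62 with Targretin. The chemokine gene Ccl24 differed by 0.34 with MeUAB30 and was on the other side with UAB30 (-0.38) and Targretin, and the difference between the analogs was 0.72 (limma adjusted p = 0.0759). Mmp9 differed by 0.13 with UAB30 and was below with MeUAB30, a difference of -0.37 (limma adjusted p = 0.35). Tat differed by -0.42 with UAB30 and -0.60 with MeUAB30, and by 0.32 with Targretin.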

How the results depend on the processing

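In UAB30 and Targretin against Control and in MeUAB30 against UAB30, 0 of the 7 markers were called by limma under all 26 alternatives. In MeUAB30 against Control the count was 1 with a pseudocount of 16, with a plain mean of probe sets, with quantile normalization, without the 4 arrays of narrow range and with the range covariate, 2 with only the 2 groups compared, 4 with array weights, and 0 to 4 when single arrays were left out (4 without Control 2, 3 without Targretin 2, 2 without UAB30 1). Calls over all genes in that comparison were 1272 with the pseudocount of 16, 1134 with the plain mean and 1456 with quantile normalization. With only the 2 groups compared they were 1121, beside 1202 in the main fit. The C1qc adjusted p was 0.0542 as reported and 0.00649 with array weights. Of 728 marker values under alternatives 676 kept their direction and side of the threshold, 20 came to pass and 32 turned sign, all 32 with adjusted p of 0.65 or above. C1qa with UAB30 turned to -0.047 (array weights), -0.0013 (without the 4 narrow arrays) and -0.026 (covariate of intensity range), with -0.054 to 0.25 when single arrays were left out. Csf1r with MeUAB30 turned to 0.039 (mean of probe sets), with -0.18 to 0.13 over left-out arrays. With Targretin, C1qa turned to 0.081 (weights) and 0.067 (narrow arrays), C1qb to -0.053 and C1qc to -0.17 (covariate), Cd68 to 0.050 (weights) and 0.0037 (narrow arrays), and Csf1r to 0.0035 (weights). Over left-out arrays these ran from -0.21 to 0.23, -0.014 to 0.27, -0.097 to 0.40, -0.33 to 0.13 and -0.25 to 0.16 in that order. Between the analogs Cd68 turned to -0.017 (covariate), and Clec4f ran from -0.099 to 0.072 over left-out arrays. Of other named genes, none called in these comparisons, Xcr1 with MeUAB30 was -0.040 without a filter, and with Targretin Cd8a was 0.033 without a filter and at the 50th percentile and 0.063 with the mean, and Ms4a1 0.11 without a filter. Between the analogs Cftr was -0.048 without a filter and -0.049 at the 50th percentile, and Ms4a1 was -0.029 without a filter, -0.072 with weights and -0.021 without the narrow arrays, with -0.076 to 0.40 over left-out arrays. The causes were not tested. Counts over all genes (UAB30, MeUAB30, Targretin, analogs) were 10, 1202, 265 and 169, and 44, 2771, 761 and 1337 with array weights, 106, 3026, 1288 and 726 with the covariate, 31, 2446, 495 and 338 without the narrow arrays, and 115 for Targretin with only its 2 groups. Over left-out arrays they ran from 4 to 36, 634 to 1718, 172 to 402 and 86 to 268. The replicate numbers did not pair the samples throughout: of 24 same-numbered pairs 10 had r above 0.1, and 5 of 16 arrays correlated best with their own number. All pairs of number 4 were positive (r 0.18 to 0.32), and pairs of the other numbers ran from -0.50 (Targretin 2 with Control 2) to 0.57 (UAB30 3 with Control 3). Whether arrays of a number share a batch was not tested. With the replicate block 0 markers were called, C1qc with MeUAB30 had an adjusted p of 0.066, and all genes gave 11, 1000, 209 and 136. Precision is limited by 4 arrays a group and by dim probe sets near background.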
